A study of Mus musculus with 8 samples.

Results

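The mitochondrial respiratory chain passes electrons from fuel to oxygen and uses the energy to pump protons, which ATP synthase lets flow back to make ATP. The genes described here are nuclear subunit genes of complexes II to V: succinate dehydrogenase (complex II), the cytochrome bc1 complex (complex III), cytochrome c oxidase (complex IV) and ATP synthase (complex V). They were chosen by gene symbol alone, as Sdha, Sdhb, Sdhc and Sdhd and every symbol that begins with Uqcr, with Cox4 to Cox8, or with Atp5. Subunits with other names, such as cytochrome c1 (Cyc1) and Ndufa4, fall outside this choice. This gave 47 genes, 4 of complex II, 8 of complex III, 18 of complex IV and 17 of complex V, each on 1 of the 22206 rows of the array. Of these rows 19572 carry exactly 1 gene symbol.

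Kidney RNA came from NZBWF1 mice, the hybrid of New Zealand Black and New Zealand White mice that develops lupus-like nephritis with age, 4 mice at 8 weeks of age and 4 at 28 weeks, with 1 Clariom S Mouse array each. Each array is called a mouse here, although the labels do not say whether it held RNA of one animal or of a pool. They name no treatment and no further allele, and number the younger mice 1 to 4 and the older ones 6 to 9. No mice of another strain were among the samples, so age and disease cannot be told apart. Values are log2 expression values after robust multi-array averaging (RMA). A difference is the 28-week mean minus the 8-week mean, with its standard error (SE). The adjusted p beside it comes from a limma fit to all 22206 rows, corrected by the Benjamini-Hochberg method.

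The kidney tubule is rich in mitochondria, above all the proximal tubule, the thick ascending limb and the distal convoluted tubule, whose salt and solute transport depends on oxidative ATP production. Complex II also belongs to the citric acid cycle. Complex III hands electrons to cytochrome c, complex IV passes them to oxygen, and complex V is the rotary motor that makes ATP. Several complex IV subunits exist as pairs of isoforms, one in most tissues and one restricted to muscle, brown fat, lung or testis. RNA of the mitochondrial genome, which encodes the catalytic core of complex IV, was not analysed here.

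No subunit gene of the 4 complexes passed the threshold of adjusted p under 0.05 in limma (0 of 47, where 0.968% of all rows passed, 0.446% higher and 0.522% lower at 28 weeks). Most members nevertheless had a slightly lower mean at 28 weeks: the difference was below 0 in 37 of 47 members (78.7%), and in 51.3% of all rows. The median difference over the members was -0.10, and over all rows it was -0.01. At an unadjusted p under 0.05 stood 4 members (8.51%, against 15% of all rows): Cox8b, which was higher (8.36% of all rows), and Cox7a2, Cox4i1 and Uqcr10, which were lower (6.63% of all rows). In 3 of them, 6.38% of the members against 8.71% of all rows, the arrays of the 2 ages did not overlap, Cox8b above (4.38% of all rows were separated in this direction) and Cox7a2 and Cox4i1 below (4.33% of all rows). A test without moderation of the variances called 0 members and 0 of all rows.

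**Figure D1:**
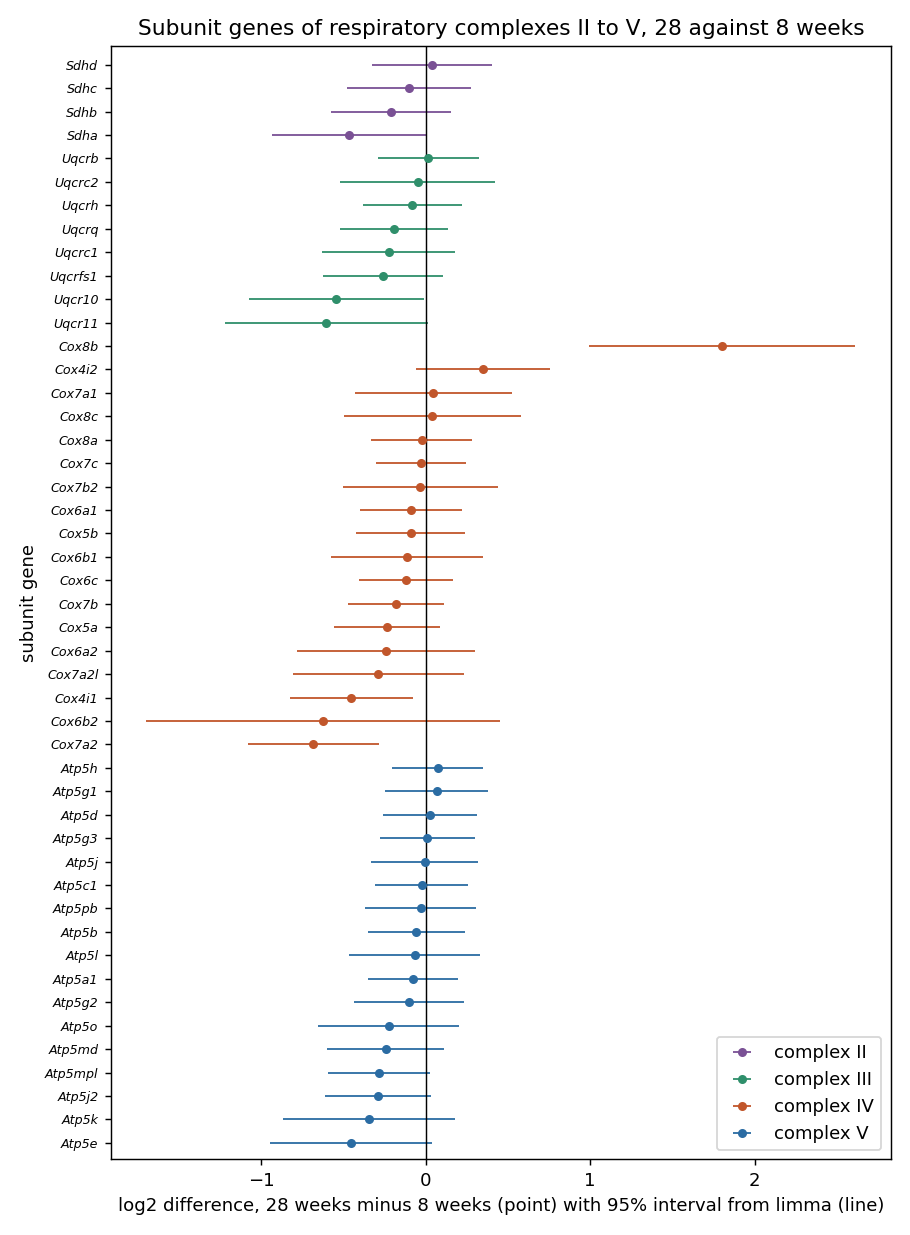
Log2 difference between 28 and 8 weeks for each of the 47 subunit genes, grouped by complex and ordered by size, with points for the difference of means (n = 4 mice at each age) and lines for the 95% interval from limma. Cox8b stands far to the right at 1.80, and the intervals of 42 of the 47 genes lie within -1 and 1.

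The precision was enough to bound most of the differences as measured. In 42 of 47 members the 95% interval of the difference lay between -1 and 1, that is, within a 2-fold change in either direction. The others were Cox8b, Cox7a2, Cox6b2, Uqcr10 and Uqcr11. In 33 members the difference itself was under 0.25 in size. These intervals bound the array values and not the transcripts where a row is dim. Cox4i2 and Cox7b2, among the 42, had 8-week means at the 31.4th and 32.7th percentiles of all rows. RMA compresses folds of such rows.

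The mice of one age differed among themselves. Averaged over the 47 members, 8-week mice 1 to 4 deviated from their common mean by 0.13, 0.09, -0.13 and -0.10. From that same mean 28-week mice 6, 7, 8 and 9 deviated by -0.15, 0.05, -0.14 and -0.24. Mouse 7 thus lay among the younger mice, and the groups overlapped. Mouse 7 had the highest value of the 28-week mice in 36 of 47 members (76.6%, where it was highest in 28% of all rows), and mouse 9 the lowest in 23. At 8 weeks mouse 1 was highest in 24 members and mouse 2 in 19, while mouse 4 was highest in 1. Over all rows mouse 1 was the highest 8-week mouse in 32.4%, and the number of rows past the threshold was 215 with all 8 arrays and 1237 without mouse 7.

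**Figure D2:**
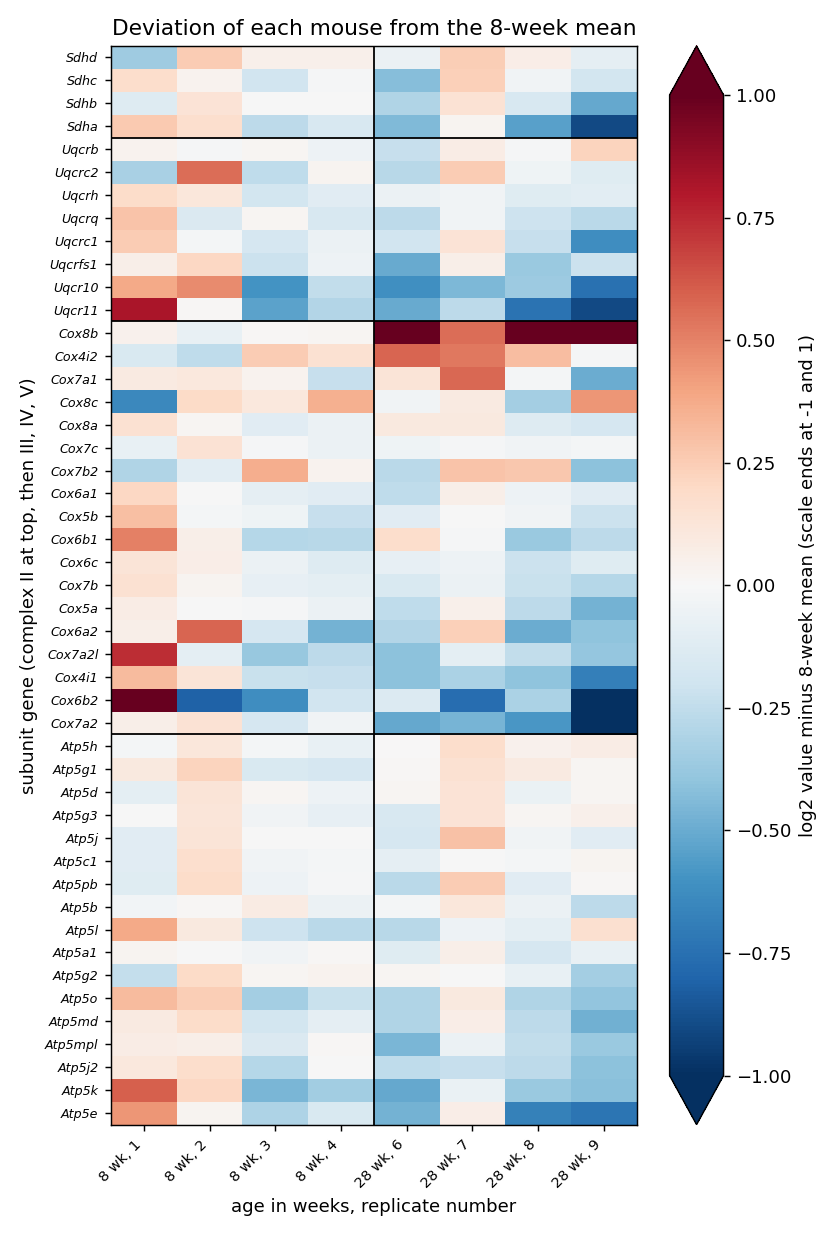
Deviation of each mouse (columns) from the 8-week mean of each of the 47 genes (rows, complex II at the top, then III, IV and V), on a log2 scale that ends at -1 and 1. Many genes are red in 8-week mice 1 and 2 and blue in 28-week mice 6, 8 and 9, while 28-week mouse 7 resembles the younger mice; Cox8b is red in all 4 older mice.

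Complex II showed no change past the threshold. Its score, the mean deviation over the 4 genes, was -0.01, 0.15, -0.10 and -0.03 in 8-week mice 1 to 4. In 28-week mice 6 to 9 it was -0.31, 0.16, -0.17 and -0.42, so mouse 7 was the highest of all 8. The median difference was -0.16 and 3 of 4 members were below 0, as against -0.01 and 51.3% over all rows. With 1 mouse left out the median ran from -0.27 (without 28-week mouse 7) to -0.09 (without 28-week mouse 6 or 9), and the members below 0 from 2 to 4. Sdha, the flavoprotein that oxidises succinate, was 11.34, 11.25, 10.82 and 10.92 at 8 weeks and 10.64, 11.11, 10.54 and 10.18 at 28 weeks. The older mice other than mouse 7 were below all younger ones, and the difference was -0.47 (SE 0.21, adjusted p = 0.34). Without mouse 7 it was -0.63 (adjusted p = 0.108), and without 28-week mouse 9 it was -0.32 (adjusted p = 0.635). Sdhb, the iron-sulfur subunit, had 14.91 ± 0.11 at 8 weeks and 14.71 ± 0.28 at 28 weeks (SD, n = 4). Sdhc and Sdhd, which anchor the enzyme in the membrane, had differences of -0.10 and 0.04. Sdhd turned to -0.08 without 8-week mouse 1 (13.46 there, lower than in the other 7 mice), to -0.03 without 28-week mouse 7, and to -0.02 with array medians set equal.

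Complex III had a median of -0.21, with 7 of 8 members below 0 and none past the threshold. The median was -0.13 without 28-week mouse 9, -0.15 without 8-week mouse 1 and -0.30 without 28-week mouse 7. Its score was 0.21, 0.15, -0.24 and -0.12 in 8-week mice 1 to 4 and -0.33, -0.03, -0.26 and -0.35 in 28-week mice 6 to 9. Here 28-week mouse 7 was above 8-week mice 3 and 4. The core proteins Uqcrc1 and Uqcrc2 and the Rieske iron-sulfur protein Uqcrfs1, through which electrons reach cytochrome c1, had differences of -0.23, -0.05 and -0.26. Uqcrc2 was 12.57 in 8-week mouse 2 and at most 12.27 in the others, and without mouse 2 its difference turned to 0.14 (without 28-week mouse 6 to 0.03). The adjusted p of Uqcrfs1 was 0.532, and its values lay between 12.43 and 12.85 at 8 weeks and between 12.14 and 12.70 at 28 weeks.

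The larger differences in complex III lay in the small supernumerary subunits Uqcr10 and Uqcr11, which surround the core. Uqcr10 was 13.20, 13.29, 12.22 and 12.57 at 8 weeks and 12.21, 12.37, 12.46 and 12.07 at 28 weeks (difference -0.54, SE 0.24, adjusted p = 0.32). Younger mice 1 and 2 stood well above every older mouse and mouse 4 just above, while mouse 3 lay among them. Uqcr11 was 10.22, 9.41, 8.87 and 9.11 at 8 weeks and 8.90, 9.14, 8.66 and 8.50 at 28 weeks (difference -0.60, SE 0.28, adjusted p = 0.344). Mouse 1 was the highest of all 8 here, and without it the difference was -0.33. The other 3 small subunits were nearer to 0: Uqcrq -0.19, Uqcrh -0.08 and Uqcrb 0.02, which turned below 0 with array medians set equal or ribosomal protein genes centred. The hinge protein Uqcrh, which links the complex to cytochrome c, varied little among the older mice (15.59 to 15.68). Uqcrb was 17.98 to 18.06 at 8 weeks and 17.80 to 18.25 at 28 weeks.

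Complex IV held both the largest lower and the largest higher difference of the members. Over its 18 members the median was -0.10, with 14 below 0, and without 8-week mouse 1 it was -0.06. Its score was 0.18, 0.01, -0.08 and -0.10 in 8-week mice 1 to 4, and 28-week mice 6 to 9 had 0.005, 0.04, -0.07 and -0.19. Older mice 6 and 7 were thus above younger mice 3 and 4. This score includes Cox8b, which was 6.80 in mouse 6 against an 8-week mean of 4.73. The order of mouse 6 therefore rests in part on that 1 gene, and a score without it was not computed. The 11 isoforms found in most tissues had differences below 0 in 11 of 11, with a median of -0.12 and a range from -0.68 to -0.03, and none passed the threshold. That count stayed at 11 under the 4 other scalings of the arrays and was 8 without 8-week mouse 1, where the median was -0.05, and 10 or 11 without any other. Without 8-week mouse 3 or 4 or 28-week mouse 6 the median was -0.21 to -0.19. Cox7a2, the liver-type form of subunit VIIa, was 13.76, 13.85, 13.54 and 13.67 at 8 weeks and 13.19, 13.24, 13.12 and 12.54 at 28 weeks. Every older mouse, mouse 7 included, was below every younger one. The difference was -0.68 (SE 0.18), 1.6-fold lower, at an adjusted p of 0.102. It ranged from -0.76 to -0.52 over the alternatives, with adjusted p from 0.0548 to 0.373. Cox4i1, the ubiquitous form of subunit IV to which ATP binds as a regulator, was 14.44, 14.25, 13.90 and 13.89 at 8 weeks and 13.71, 13.80, 13.72 and 13.44 at 28 weeks. These groups did not overlap either, and the gap between them was 13.89 to 13.80 (difference -0.45, SE 0.17, adjusted p = 0.227).

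The other ubiquitous complex IV subunits differed less. Cox5a, which binds a thyroid hormone metabolite, had a difference of -0.24 and 28-week mouse 7 again lay among the younger mice at 13.38. Cox7a2l, a relative of Cox7a2 that joins complexes III and IV into supercomplexes, had a difference of -0.29 (adjusted p = 0.645), and its 8-week mouse 1 stood at 13.35 against 12.23 to 12.51 in the other 3. Cox7b had a difference of -0.18 (SE 0.13) and Cox6c one of -0.12 (SE 0.13). Cox5b, Cox6a1 and Cox6b1 lay between -0.12 and -0.09, and the bright rows of Cox7c and Cox8a had -0.03 and -0.03. Cox7c was 18.47 to 18.50 in the older mice. Without 8-week mouse 1 the differences of Cox8a, Cox5b and Cox6b1 turned to 0.03, 0.01 and 0.05, and that of Cox8a also turned without 28-week mouse 8 or 9.

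The single large difference was that of Cox8b, the heart, skeletal muscle and brown fat form of subunit VIII. It was 4.77, 4.65, 4.74 and 4.75 at 8 weeks and 6.80, 5.29, 6.61 and 7.41 at 28 weeks. All 4 older mice were above all younger ones, mouse 7 by the least. The younger mice lay close together (SD 0.05) and the older ones far apart (SD 0.89). The difference was 1.80 (SE 0.36, 95% interval 0.99 to 2.61), which is 3.48-fold as measured, and its adjusted p of 0.0537 did not pass the threshold. It passed in 6 of 17 alternatives. Without 28-week mouse 7 the difference was 2.21 (adjusted p = 0.000358), and without any other single mouse adjusted p was 0.0961 to 0.15. Over the alternatives adjusted p ranged from 0.000358 to 0.39. The row is dim at 8 weeks, with its mean at the 32.4th percentile of all rows. RMA gives no detection call, so the 8-week level of Cox8b is not shown to be above background and the fold depends on it. The ubiquitous partner Cox8a stayed between 17.23 and 17.49 at 8 weeks and between 17.17 and 17.44 at 28 weeks.

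**Figure D3:**
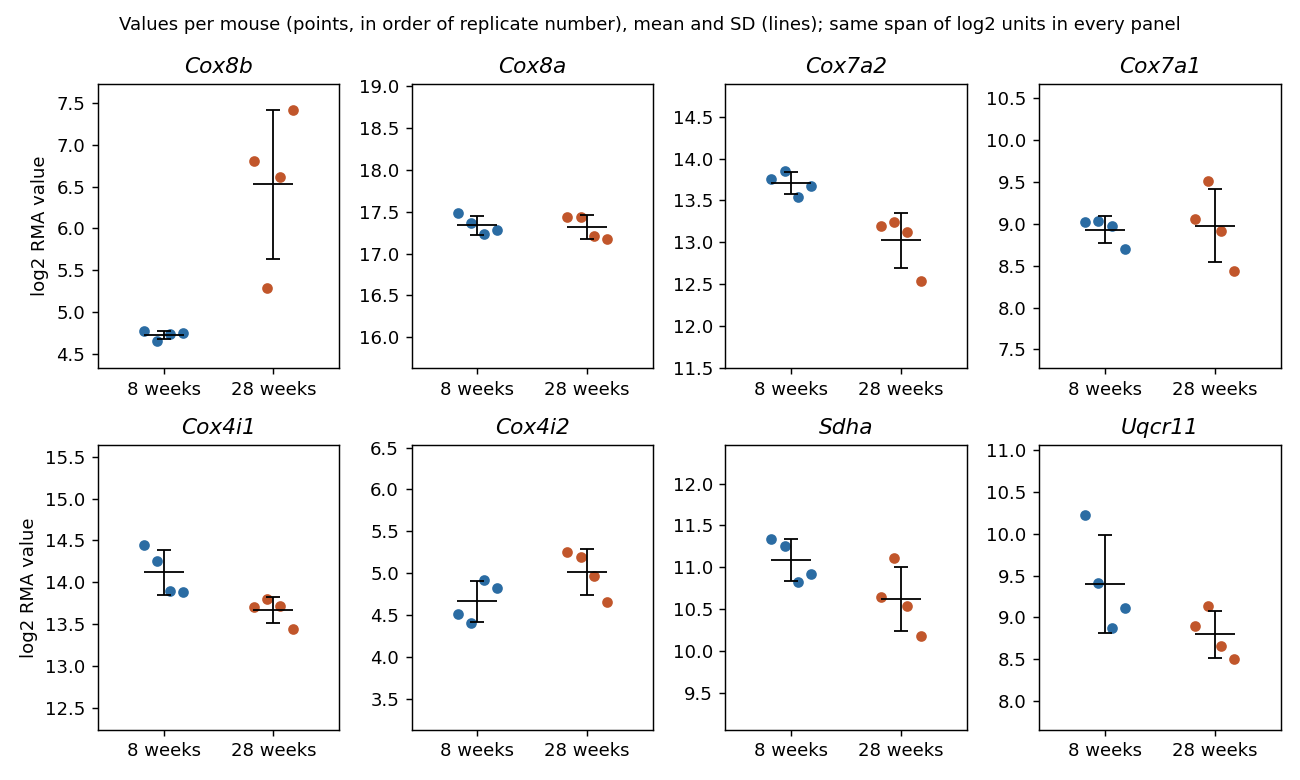
Log2 values of 8 subunit genes in each mouse (points, in order of replicate number, blue 8 weeks and orange 28 weeks), with the mean and SD as lines and the same span of log2 units in every panel. Cox8b lies above its 8-week values in all 4 older mice and Cox7a2 lies lower in all 4, while Cox8a and Cox7a1 overlap between the ages.

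The promoter windows of Cox8b and Cox8a are shown because the members of this isoform pair differed most. Each window is from RefSeq on GRCm38.p6 and runs from 250 bases before to 50 bases after the annotated start, on the strand of the gene. Cox8b lies at chr7:140900397-140900696 and Cox8a at chr19:7217567-7217866, both on the minus strand. Capitals mark matches to the motifs searched, the letters TATAAAA in Cox8b and the GABPA motif on the opposite strand in Cox8a.
Cox8b: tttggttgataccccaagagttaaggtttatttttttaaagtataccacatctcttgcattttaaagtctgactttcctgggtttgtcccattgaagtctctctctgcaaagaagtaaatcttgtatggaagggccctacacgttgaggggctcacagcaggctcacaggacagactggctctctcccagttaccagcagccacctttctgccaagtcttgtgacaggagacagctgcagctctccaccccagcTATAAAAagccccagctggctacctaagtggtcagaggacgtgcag
Cox8a: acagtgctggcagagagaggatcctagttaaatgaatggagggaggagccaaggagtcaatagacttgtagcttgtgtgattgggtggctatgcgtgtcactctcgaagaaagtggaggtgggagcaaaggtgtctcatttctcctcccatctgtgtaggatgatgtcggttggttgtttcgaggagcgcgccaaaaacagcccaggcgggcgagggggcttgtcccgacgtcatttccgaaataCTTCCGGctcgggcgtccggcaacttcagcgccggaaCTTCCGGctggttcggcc
The window of Cox8b held none of the NRF-1, GABPA, YY1 and ERR motifs, and its TATAAAA begins at base 5 of the annotated transcript. The window of Cox8a held the GABPA motif 2 times and no TATAAAA. The letters show only what these windows contain.

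None of the other 6 restricted isoforms had groups that did not overlap. Cox6a2 and Cox7a1, the muscle forms of subunits VIa and VIIa, had differences of -0.24 and 0.05. Cox7a1 was 9.02, 9.04, 8.97 and 8.70 at 8 weeks and 9.06, 9.51, 8.91 and 8.44 at 28 weeks, which overlapped, and without mouse 7 the difference was -0.13. Cox4i2, the form of subunit IV known from lung and from oxygen sensing, was 4.51, 4.41, 4.92 and 4.82 at 8 weeks and 5.25, 5.19, 4.97 and 4.65 at 28 weeks (difference 0.35, SE 0.18, adjusted p = 0.417). Its older mice other than mouse 9 were above all younger ones. The testis forms Cox6b2, Cox7b2 and Cox8c had differences of -0.62, -0.03 and 0.04, and that of Cox8c turned below 0 with array medians set equal or quantile normalization. Cox6b2 was 7.06 in 8-week mouse 1 and 4.17 to 5.31 in the other 7 mice, and without mouse 1 its difference was -0.09.

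Within each mouse the restricted form was also set against its ubiquitous partner, which shows only that the pair changed unequally. In 7 pairs compared, the ratio was higher in all 4 older mice for Cox8b over Cox8a (by 1.83 on the log2 scale), Cox4i2 over Cox4i1 (by 0.80) and Cox7a1 over Cox7a2 (by 0.73). Each of these 3 had a two-sided exact permutation p of 0.0286, the smallest that 4 against 4 mice allow. After Benjamini-Hochberg adjustment over the 7 pairs it was 0.0667, so none passed. With 7 pairs none could pass unless most of them reached that smallest p, so the adjusted test could hardly decide. Each of the 3 pairs also holds a member whose own groups did not overlap, Cox8b, Cox4i1 or Cox7a2, so the ratios partly repeat those separations. The row of Cox4i2 is dim as well (31.4th percentile at 8 weeks) and not shown to be above background. For Cox7a1 over Cox7a2 the deviations from the 8-week mean ratio were 0.64, 1.04, 0.56 and 0.67 in mice 6 to 9 and lay between -0.20 and 0.20 at 8 weeks. Mouse 7 had the highest of these ratios. The ratios of Cox6a2, Cox6b2, Cox7b2 and Cox8c to their partners overlapped between the ages, with p from 0.371 to 0.857 in the exact permutation test.

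Complex V had a median of -0.07, with 13 of 17 members below 0 and none past the threshold. With 1 mouse left out the median ran from -0.12 (without 28-week mouse 7) to -0.04 (without 8-week mouse 2 or 28-week mouse 9), and the members below 0 from 9 (without 28-week mouse 6) to 15. Its score was 0.08, 0.13, -0.13 and -0.09 in 8-week mice 1 to 4 and -0.20, 0.07, -0.15 and -0.19 in 28-week mice 6 to 9. In the catalytic F1 head, the nucleotide-binding subunits Atp5a1 and Atp5b differed by -0.08 and -0.06, and the central stalk subunits Atp5c1 and Atp5d by -0.02 and 0.03, of which Atp5d turned below 0 with arrays set to equal medians or centred on ribosomal protein genes, and Atp5c1 above 0 with quantile normalization. Atp5a1 was 18.31 to 18.37 at 8 weeks and 18.18 to 18.40 at 28 weeks. The fifth head subunit, Atp5e, was 9.72, 9.31, 8.97 and 9.13 at 8 weeks and 8.81, 9.35, 8.61 and 8.55 at 28 weeks (difference -0.45, SE 0.22, adjusted p = 0.381). The older mice other than mouse 7 were below all younger ones, and without mouse 7 the difference was -0.63 (adjusted p = 0.125). Without 8-week mouse 1 it was -0.31 (adjusted p = 0.516), and without 28-week mouse 9 it was -0.36 (adjusted p = 0.653).

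The 3 genes of the proton-carrying c ring, Atp5g1, Atp5g2 and Atp5g3, encode the same mature protein behind different import sequences, and their differences were 0.07, -0.10 and 0.01, and the sign of Atp5g3 turned in 3 of the 4 other scalings. Atp5g1 was 15.56 to 15.95 at 8 weeks and 15.74 to 15.88 at 28 weeks. The peripheral stalk genes Atp5pb, Atp5h and Atp5j differed by -0.03, 0.07 and -0.01, where Atp5pb and Atp5j turned above 0 with quantile normalization and Atp5j also with cyclic loess, and Atp5o, the oligomycin sensitivity subunit, by -0.23. All 5 small membrane subunits, which hold ATP synthase dimers together or stabilise them, had differences below 0, between -0.34 and -0.07, and this held in the 4 other scalings and was 4 of 5 without 8-week mouse 1 or 28-week mouse 6. Atp5j2 was 16.23, 16.30, 15.84 and 16.12 at 8 weeks and 15.87, 15.89, 15.86 and 15.71 at 28 weeks (difference -0.29, SE 0.14, adjusted p = 0.39). Only 8-week mouse 3 overlapped the older mice. Atp5mpl was 16.15, 16.14, 15.93 and 16.09 at 8 weeks and 15.62, 16.02, 15.83 and 15.71 at 28 weeks (difference -0.28, SE 0.14, adjusted p = 0.39). Here 28-week mouse 7 overlapped the younger ones. Atp5md and Atp5k had differences of -0.24 and -0.34 (SE 0.16 and 0.24), and Atp5l one of -0.07.

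Genes that build, feed or control these complexes were read from further lists, and no member of them passed the threshold. Of 35 measured complex I subunits, 33 had a difference below 0, with a median of -0.22 and the smallest p in Ndufa1 (-0.90, adjusted p = 0.074) and Ndufa6 (-0.81, adjusted p = 0.116). The complex I score was 0.19, 0.14, -0.17 and -0.16 in 8-week mice 1 to 4 and -0.36, -0.05, -0.27 and -0.36 in 28-week mice 6 to 9. Of 21 assembly factors of complex IV, 13 were below 0 and 8 above (median -0.16). The copper-handling factor Coa6 was 10.23, 10.61, 10.21 and 10.41 at 8 weeks and 9.34, 9.89, 9.47 and 9.35 at 28 weeks. All 4 older mice were below all younger ones (difference -0.85, SE 0.17, adjusted p = 0.0501). Of 6 complex III assembly factors 6 were below 0, led by Uqcc3 (-0.96, adjusted p = 0.0909). The ATP synthase list, 5 measured genes, had a median of -0.09, with Tmem70, which helps insert the c ring, at -0.52 (adjusted p = 0.127). The ATP synthase inhibitor Atpif1 was 15.31 ± 0.05 at 28 weeks and 15.35 ± 0.11 at 8 weeks (SD, n = 4).

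Regulators of mitochondrial biogenesis had a median of -0.06, 12 of 15 below 0. Ppargc1a, the coactivator that drives respiratory gene transcription, was 14.68 ± 0.27 at 8 weeks and 14.65 ± 0.34 at 28 weeks. Tfam, the transcription factor of the mitochondrial genome, had a difference of 0.03. The smallest p on this list was that of Ppara, a nuclear receptor of fatty acid oxidation (-0.86, adjusted p = 0.134). Polrmt, the mitochondrial RNA polymerase, was 8.18, 7.20, 7.08 and 7.02 at 8 weeks, and 28-week mice 6 to 9 had 6.64, 6.48, 6.38 and 6.92, all below the younger ones (difference -0.77, SE 0.26, adjusted p = 0.18). Twnk, the mitochondrial DNA helicase, was also lower in all 4 older mice than in the younger ones (difference -0.49, SE 0.18, adjusted p = 0.217). The median was -0.08 over 12 citric acid cycle genes and 0.05 over 12 carriers, porins and import genes of the mitochondrion. In these lists Idh3a (0.345, adjusted p = 0.265) and Vdac2 (0.25, adjusted p = 0.427) were higher in all 4 older mice than in the younger ones. Dlst (-0.40, adjusted p = 0.321) and Tomm20 (-0.22, adjusted p = 0.477) were lower in all 4. Cytochrome c itself, Cycs, had a difference of 0.15 (SE 0.13). Cyc1, cytochrome c1 of complex III, had one of -0.06 (SE 0.18), and Ndufa4, a subunit of complex IV, one of -0.13 (SE 0.13). With the dim testis form Cyct (-0.19) the list of these 4 had a median of -0.09. Complex II assembly factors had a median of -0.10.

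The marker Slc22a6, the organic anion transporter of the proximal tubule, was 15.20 to 15.65 at 8 weeks and 14.42 to 14.76 at 28 weeks, among the brightest rows in every array. Marker scores of tubule segments and of immune cells differed between the ages, and in bulk kidney fewer cells of a type and less RNA per cell cannot be told apart. All 8 proximal tubule markers had differences below 0 (median -0.36), 1 of them past the threshold, Slc22a6 (-0.91, adjusted p = 0.0313). The proximal tubule score was -0.03 to 0.05 at 8 weeks and -0.47, -0.24, -0.57 and -0.68 in 28-week mice 6 to 9. Of the distal convoluted tubule, 4 of 4 markers were below 0 (median -2.13) and Pvalb passed (-2.43, adjusted p = 0.0462). The score of that list was -2.77, -0.51, -2.06 and -2.31 in mice 6 to 9. The 4 thick ascending limb markers were above 0 (median 0.70), and their score was 0.51 to 0.82 at 28 weeks and -0.17 to 0.19 at 8 weeks. Macrophage markers were above 0 in 5 of 5 (median 2.53), with scores of 4.09, 0.47, 3.15 and 2.88 in mice 6 to 9 and -0.36 to 0.41 at 8 weeks. In these 4 marker scores mouse 7 was the older mouse nearest to 0, and in the scores of complexes II to V it was the highest of the older mice. The part of these cell types in the differences of the subunit genes was not tested.

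**Figure D4:**
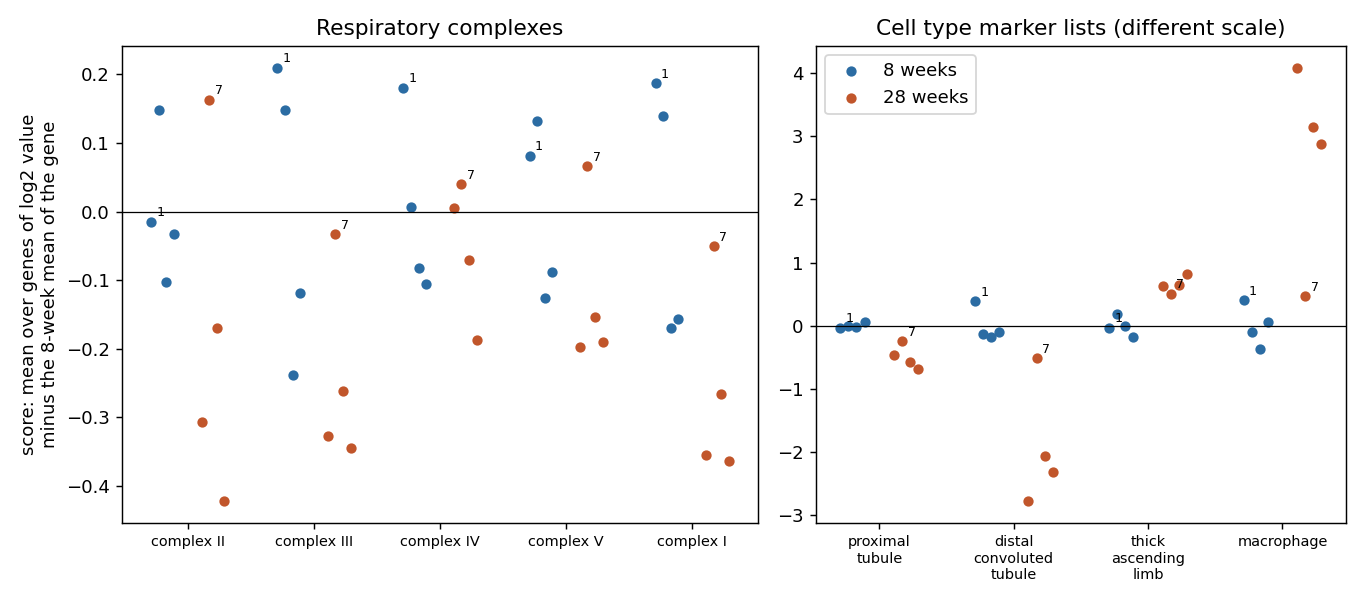
Score of each mouse (points, blue 8 weeks and orange 28 weeks), averaging over genes the log2 deviation from the mean at 8 weeks, for complexes II to V and complex I on the left and for 4 cell type marker lists on the right, on a larger scale. The numbers mark 8-week mouse 1 and 28-week mouse 7, which lies above the other older mice in all 5 complexes.

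Marker scores of the tissues in which Cox8b is known overlapped between the ages. Ucp1, the uncoupling protein that defines brown fat, had 3.22, 2.90, 3.16 and 3.13 in the younger mice and 2.87, 3.10, 3.12 and 3.31 in the older ones, near the lowest value of the data set, 2.31. The score of the 3 brown fat markers was 0.01 to 0.10 at 28 weeks and -0.24 to 0.16 at 8 weeks. All 3 rows are among the dimmest, with Ucp1, Cidea and Elovl3 at the 2.39th, 6.06th and 1.07th percentiles. Overlap of this score therefore does not show how much brown fat the samples held. The score of the 7 striated muscle markers was -0.08 to 0.09 at 28 weeks and -0.20 to 0.22 at 8 weeks. The muscle creatine kinase gene Ckm had a difference of 0.18 (adjusted p = 0.876). Rows of this list are dim as well, from percentile 16.1 (Myh4) to 53.3 (Ckm). The white fat score was -0.26 to -0.09 at 28 weeks and -0.32 to 0.22 at 8 weeks. The testis score was -0.32 to 0.17 at 28 weeks and -0.11 to 0.26 at 8 weeks. White fat rows lay at percentiles 4.33 (Lep) to 18.8 (Adipoq), and testis rows at 1.88 (Tnp1) to 37.6 (Prm2). Overlap of the muscle, white fat and testis scores therefore does not show how much of these tissues the samples held. Scores of the remaining lists at 28 weeks were -0.22 to 0.14 for principal cells and -0.39 to -0.08 for intercalated cells. Podocytes had -0.38 to -0.11 and endothelium -0.07 to 0.63. In the same order the 8-week scores were -0.26 to 0.58, -0.11 to 0.085, -0.28 to 0.215 and -0.07 to 0.05, so each overlapped. T cell scores were 0.29 to 0.87 at 28 weeks and B and plasma cell scores 0.37 to 3.27, both above all younger mice. Smooth muscle and mesangium had -0.64 to 0.73 at 28 weeks and -0.56 to 1.12 at 8 weeks. Fibroblasts had -0.35 to 1.41 at 28 weeks and -0.41 to 0.915 at 8 weeks.

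A feature that the choice of genes did not use is the sequence at their start sites. RefSeq promoter windows of 300 bases were at hand for 36 of the 47 members (39 windows). The NRF-1 motif GCGCATGC, on either strand, was in 7 of the 39 windows (17.9%), in 3.66% of the windows of genes on the array and in 2.71% of all 32851 windows. The GABPA motif CCGGAAG was in 13 windows (33.3%, against 11.8% and 8.86%), the YY1 motif AAGATGGC in 3 (7.69%, against 3.1% and 2.75%) and the estrogen-related receptor motif AAGGTCA in 5 (12.8%, against 3.93% and 4.72%). NRF-1 and GABPA are known activators of respiratory chain genes. The TATA box TATAAAA, searched only after the sequences had been seen, was in 2 windows, those of Cox8b and Atp5l (5.13%, against 4.87% and 5.48%). No motif contains another, all were searched on both strands, and a match is not a shown binding site.

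Uqcr11, at chr10:80406772-80407071, is shown as a window that holds both an NRF-1 and a GABPA match, and Cox7a2, at chr9:79759804-79760103, as the member with the largest lower difference. Both are on the minus strand, printed from 250 bases before to 50 bases after the start, with matches in capitals.
Uqcr11: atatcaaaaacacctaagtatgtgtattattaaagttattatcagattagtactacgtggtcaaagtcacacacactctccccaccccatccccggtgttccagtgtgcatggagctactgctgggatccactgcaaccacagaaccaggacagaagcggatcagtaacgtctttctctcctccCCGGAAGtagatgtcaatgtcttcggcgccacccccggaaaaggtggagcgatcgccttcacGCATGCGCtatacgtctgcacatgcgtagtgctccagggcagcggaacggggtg
Cox7a2: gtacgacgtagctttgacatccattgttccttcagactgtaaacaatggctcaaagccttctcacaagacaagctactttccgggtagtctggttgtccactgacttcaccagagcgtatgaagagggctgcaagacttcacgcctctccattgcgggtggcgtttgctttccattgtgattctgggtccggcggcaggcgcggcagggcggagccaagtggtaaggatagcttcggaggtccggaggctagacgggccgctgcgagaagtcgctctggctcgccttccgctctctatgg
In Uqcr11 the GABPA match begins 66 bases before the start and the NRF-1 match 4 bases before it. The window of Cox7a2 held none of the motifs searched.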

How the data were processed

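Kidney total RNA in 8 samples was measured on Clariom S Mouse arrays with 1 dye. The authors deposited log2 values made with RMA, per the submitters' processing notes. No version or setting of RMA is named in the labels, and the log base was taken as 2 from convention and the range, 2.31 to 19.89. RMA compresses folds of dim rows. Array medians lay between 5.98 and 6.14.

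Groups came from the labels. Ages share no replicate number, so no pairing was used. Nothing says whether RNA was pooled, and p-values measure the spread between these arrays. All 22206 rows were fitted without a filter (lmFit and eBayes, limma 3.58.1, R 4.3.3, prior degrees of freedom 4.13), with Benjamini-Hochberg adjustment at 0.05. Row symbols came from the platform annotation, and all 47 members matched RefSeq by gene identifier. Members, lists and alternatives were chosen with earlier results of these data known. The rule for named genes took, per complex, the 3 smallest p in each direction, the restricted isoforms with their partners, the c ring genes, and of each list the members past the threshold or the 2 smallest p, of which those that bear on a result are printed; other members and list genes were named for their role or after their values were seen. On simulated data limma recovered 2% of log2 changes of 0.5, 63.3% of 1 and 97.3% of 2. Counts of members below 0 under other settings and the TATA motif were added after seeing the data. Plots were drawn with matplotlib 3.10.9 in Python 3.11.15, from tables made in pandas 2.3.3.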

Additional observations from a re-analysis of the deposited data

Results flagged for a closer look

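Of 104 groups of 4 mice examined (47 genes and 5 scores at 2 ages), 2 had a mouse apart from the other 3. Chance gives about 1 in 20, so these 2 flags are fewer than chance alone would give. At 28 weeks mouse 9 had the lowest value of Atp5j2, 15.71, against 15.86 to 15.89 in the other 3. In the score of complex V at 28 weeks mouse 7 was the highest, at 0.0665, against -0.198 to -0.153 in the other 3.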

How the results depend on the processing

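No setting called a member lower, and the median difference of the members and of each complex stayed below 0 in every setting in which it was computed (-0.16 to -0.08 over all members). The number of members called higher, all and in complex IV, was 0 in the main result and 1, Cox8b, with 1 row per gene symbol (adjusted p = 0.045), with array weights (0.0185), with trend and robust moderation (0.0329), with arrays centred on ribosomal protein genes (0.049) and without both 8-week mouse 1 and 28-week mouse 7 (0.000852). Leaving out 1 mouse at a time gave 0 to 1, with 1 only without 28-week mouse 7. Over all rows the calls numbered 215 in the main result, 1384 without both mice, 873 with array weights, 399 with trend and robust moderation, 399 of 11105 with the dimmer rows left out, 0 without moderated variances, and 25 to 1237 with 1 mouse left out (1237 without 28-week mouse 7). Other scalings left 36 to 43 members below 0, and leaving out 1 mouse left 30 (without 28-week mouse 6) to 42. The higher scaling counts were 43 with array medians set equal and 40 with ribosomal protein genes centred. There the median difference over all rows was also lower, at -0.071 and -0.039, against -0.01 in the main result. A shift of all rows is therefore part of those counts. Quantile normalization and cyclic loess each left 36 members below 0, with medians over all rows of -0.019 and -0.007. Of 47 members, 18 changed sign in at least 1 setting, none with a difference above 0.115 in size. No member had several rows, so the choice of row was not tried, and Cox8b dropped out with the dimmer rows. Differences of 0.5 or less were mostly too small for 4 arrays per age to detect. No paired analysis was possible because the ages share no replicate number.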
